A study of Homo sapiens with 6 samples.

Results

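The genes described here are 31 known targets and close regulators of p53, chosen by name from a list of the p53 response. Of these, 30 had a row in the table of 26789 genes, no symbol occurred more than 1 time, and DDB2 was not analysed here. The cells were SK-N-SH, a human neuroblastoma line that holds cells of adrenergic and mesenchymal type, compared after 6 h with dopamine (n = 3) and after 6 h in medium alone (control, n = 3). The genotype of all 6 samples is labelled wild type, the labelled dopamine dose carries a unit that seems to lack its prefix and is not given here, and the series' design text names SH-SY5Y, a subline of SK-N-SH, as the treated cells. RNA was sequenced after removal of ribosomal RNA, and the values are FPKM, fragment numbers per length of gene and per size of library. Replicates are numbered 1 to 3 in both groups, and nothing says that the cultures were separate. The p-values therefore rest on a spread between samples that may be technical.

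The transcription factor p53 is held low in resting cells by the ubiquitin ligase MDM2 and its partner MDM4. DNA damage and other stresses free it, and it then switches on genes for cell cycle arrest, DNA repair, metabolism and cell death, along with MDM2 itself and other inhibitors that close a feedback loop. The study's stated question is how dopamine acts on the proliferation of these cells.

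In the DNA, p53 binds a decamer called the p53 half-site, usually as a pair: 3 purines, C, 2 bases that are A or T, G and 3 pyrimidines. RefSeq windows from 250 bases before to 50 bases after a gene's start (build GRCh38.p14) were held for 22 of the 30 members. GADD45A, PHLDA3, ZNF385A, TNFRSF10A, TNFRSF10B, TNFRSF10D, TP53INP1 and RRM2B had no entry. The half-site, which reads as the same class on both strands, was found in 1 window each of 6 members. That is 6 of 34 member windows (17.6%), against 2329 of 35116 windows of all genes (6.63%). Pairs of half-sites with a spacer of up to 13 bases, with no mismatch allowed in either, were in 0 member windows and in 10 windows of all genes. The match is of letters without any mismatch, so a site that departs from the pattern or lies outside the windows was not counted. It says nothing of binding and does not show that a member lacks a site or a pair. The members were chosen as p53 targets. The windows of PLK2 (chr5:58460037-58460336, minus strand), SESN1 (chr6:109008939-109009238, minus strand), FAS (chr10:88991181-88991480, plus strand) and AEN (chr15:88621090-88621389, plus strand) are shown because they are the 4 with a half-site and the smallest p in the comparison that follows. PLK2, SESN1 and FAS had a higher mean with dopamine and AEN a lower mean. Each reads 5′ to 3′ on the gene's strand, and capitals mark the half-site.
PLK2: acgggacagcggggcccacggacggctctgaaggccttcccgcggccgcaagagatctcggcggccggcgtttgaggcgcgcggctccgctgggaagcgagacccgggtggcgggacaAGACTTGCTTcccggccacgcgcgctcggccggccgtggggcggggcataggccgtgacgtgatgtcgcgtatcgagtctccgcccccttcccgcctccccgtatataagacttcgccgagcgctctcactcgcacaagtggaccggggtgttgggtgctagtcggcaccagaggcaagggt
SESN1: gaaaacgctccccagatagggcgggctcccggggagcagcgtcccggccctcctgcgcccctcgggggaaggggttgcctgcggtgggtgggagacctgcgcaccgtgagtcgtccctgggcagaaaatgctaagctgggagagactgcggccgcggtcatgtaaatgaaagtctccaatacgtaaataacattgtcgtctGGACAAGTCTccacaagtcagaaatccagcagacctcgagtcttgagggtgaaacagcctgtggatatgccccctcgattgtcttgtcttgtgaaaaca
FAS: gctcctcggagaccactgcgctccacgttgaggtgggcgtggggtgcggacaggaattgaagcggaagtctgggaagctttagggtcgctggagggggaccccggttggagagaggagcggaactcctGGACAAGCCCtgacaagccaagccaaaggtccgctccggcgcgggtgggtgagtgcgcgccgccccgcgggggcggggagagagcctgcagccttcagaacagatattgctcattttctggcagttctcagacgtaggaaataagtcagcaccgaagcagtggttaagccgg
AEN: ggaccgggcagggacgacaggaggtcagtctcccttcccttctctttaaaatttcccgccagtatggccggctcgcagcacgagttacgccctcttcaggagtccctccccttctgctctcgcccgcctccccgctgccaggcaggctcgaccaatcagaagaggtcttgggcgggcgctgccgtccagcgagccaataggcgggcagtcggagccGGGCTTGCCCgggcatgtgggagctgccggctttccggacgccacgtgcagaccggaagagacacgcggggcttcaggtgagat
The half-site began 132 bases before the start in PLK2, 49 bases in SESN1, 122 bases in FAS and 34 bases in AEN. EI24 held GGGCATGCCC 10 bases before its start, and FDXR held GGGCTTGCCC, the same letters as in AEN, 11 bases before its start.

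No p53 response gene passed an adjusted p of 0.05 in the comparison of dopamine with control cells (limma with an intensity trend on log2(FPKM + 0.5), two-sided, Benjamini-Hochberg over all tested genes). The test covered 27 members with a mean of at least 1 FPKM over the 6 samples, and 12 of 11791 tested genes passed (0.102%, with 0.0848% higher and 0.017% lower with dopamine). A mean on that scale that was higher with dopamine was found in 18 members, against 60.0% of all tested genes. At an unadjusted p under 0.05 stood 16 of the 27 members (59.3%), against 32.5% of all tested genes. Of these 16, 11 had a higher mean with dopamine (24.4% of all tested genes were called in that direction) and 5 a lower mean (8.05% of all). After median-of-ratios scaling the same count was 5 higher and 6 lower, where 30.9% of all tested genes had such a p. After quantile normalization it was 6 and 6, where 29.2% of all tested genes did. In 15 members (55.6%) the 3 dopamine values did not overlap the 3 control values, 9 lying above and 6 below. Over all tested genes that held for 38.4%, 24.4% above and 14.1% below. The members' median log2 fold change was 0.17 beside 0.08 over all tested genes, and 0.06 beside -0.02 after median-of-ratios scaling.

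**Figure D1:**
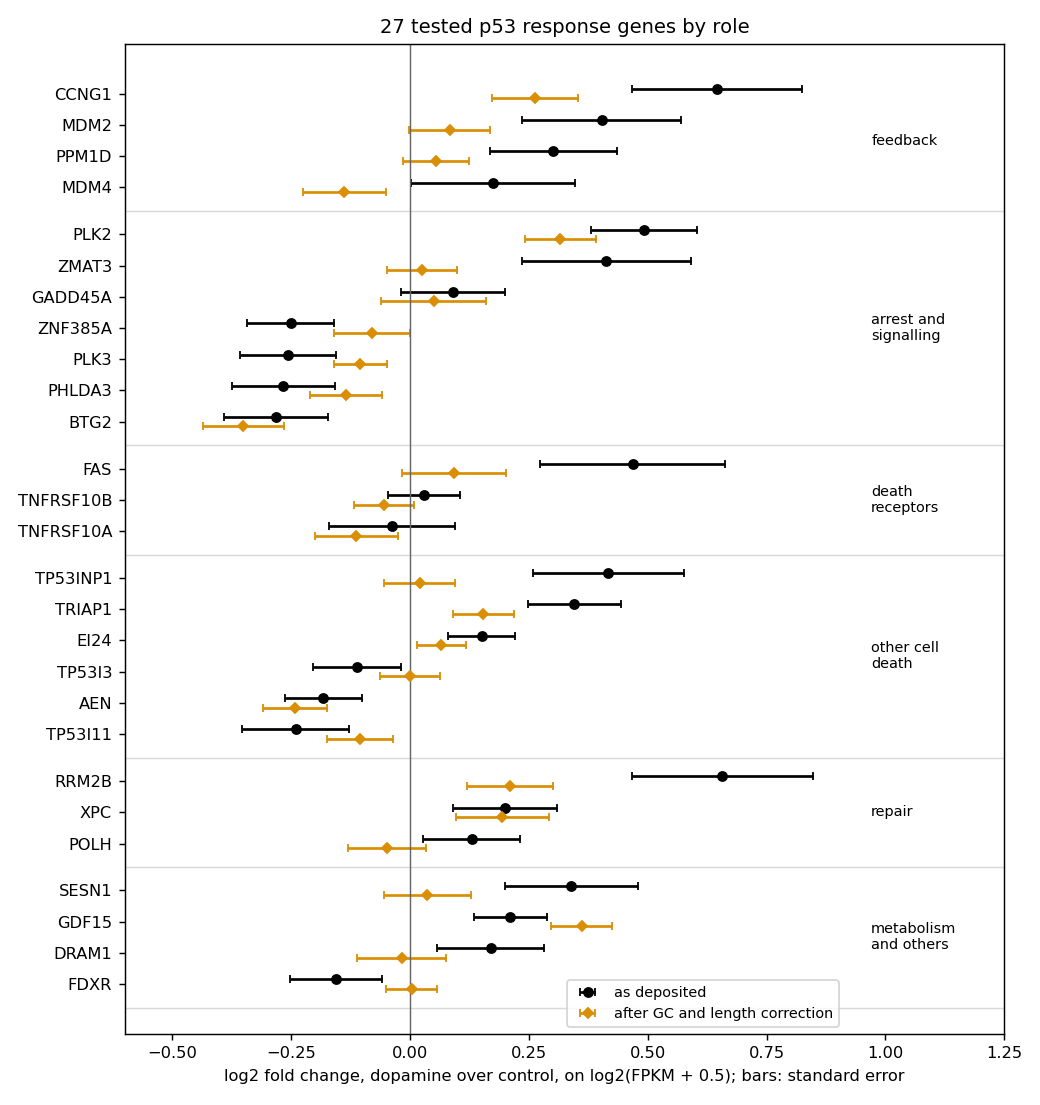
Log2 fold change of dopamine over control on the log2(FPKM + 0.5) scale for the 27 tested p53 response genes, grouped by role. Points are limma estimates and bars standard errors, black as deposited and orange after the correction for GC content and transcript length. RRM2B and CCNG1 have the highest values as deposited, 0.66 and 0.65, and GDF15 the highest after the correction, 0.36.

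The direction of the members followed the base composition of their transcripts, as it did over all genes. The 13 tested members with a GC content at or below the median of all tested genes (49.4%) all had a higher mean with dopamine, and 10 of them had a p under 0.05. Among the 5790 genes of that kind 91.1% had a higher mean, and 45.8% had a higher mean with a p under 0.05. Of the 14 members above that median 5 had a higher mean, and at a p under 0.05 stood 1 higher and 5 lower. Among the 5789 genes of that kind 28.97% had a higher mean, and at a p under 0.05 stood 3.25% higher and 15.6% lower. Across the 27 members the Pearson correlation of GC content with log2 fold change was -0.82, and across all tested genes it was -0.75. These genes share the same 6 libraries, so both values are descriptions.

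**Figure D2:**
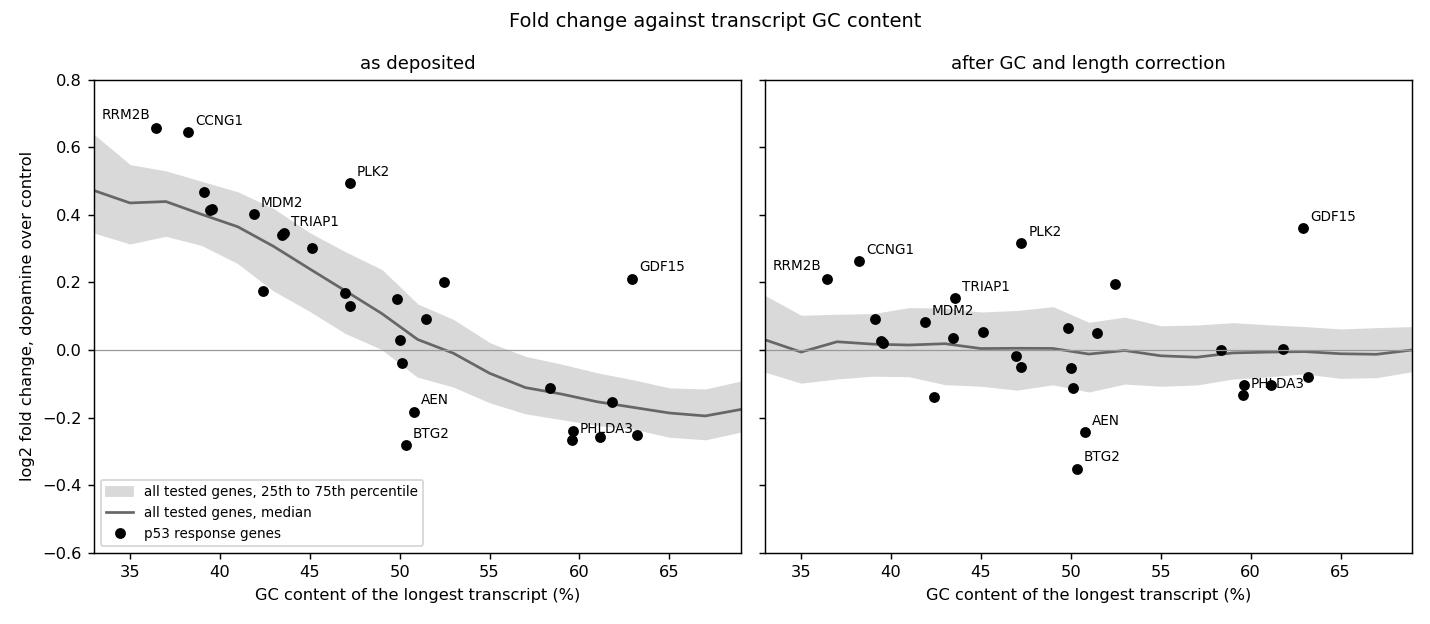
Log2 fold change of dopamine over control against the GC content of the longest transcript, as deposited (left) and after the correction (right). Black points are the 27 tested p53 response genes, the line and band are the median and the 25th to 75th percentile of all tested genes in bins of 2 points of GC content. As deposited RRM2B, CCNG1, PLK2, XPC and GDF15 lie above the band, and MDM4, BTG2, AEN, PLK3, PHLDA3, ZNF385A and TP53I11 below it.

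The libraries themselves differed in this way. Regressed on GC content, the deviations of dopamine replicates 1, 2 and 3 from the mean of each gene had slopes of -0.03, -0.06 and -0.26 log2 units per 10 points, and those of control replicates 1, 2 and 3 had slopes of 0.02, 0.11 and 0.22. Dopamine replicate 3 gave the highest value of the 6 samples in 15 of the 27 members and the lowest in 5, and control replicate 3 the lowest in 10 and the highest in 5. Without both libraries, 6 members had a p under 0.05 with a higher mean and 2 with a lower mean (13.1% of all tested genes had such a p). Recovered depth was 19433000 to 24225000 fragments per library. Of a list of nuclear-retained RNAs 3 were tested, and in each the mean was raised in dopamine cells. The list had a median of 0.46 on the log2 fold scale, and of 0.15 after the correction. These 3 RNAs have a GC content of 38.4 to 44.1%. Of all genes at or below the median GC content, 91.1% had a higher mean, 45.8% with a p under 0.05. Such a p was found in 2 of the 3 as deposited and in 0 after the correction (limma). MALAT1 stood at 1.49, 1.36 and 2.56 FPKM with dopamine and at 1.16, 1.07 and 0.855 FPKM in control cells. The part of RNA quality and of GC content in the members' differences was not tested, and a GC slope that moves with the groups cannot be told apart from the treatment.

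**Figure D3:**
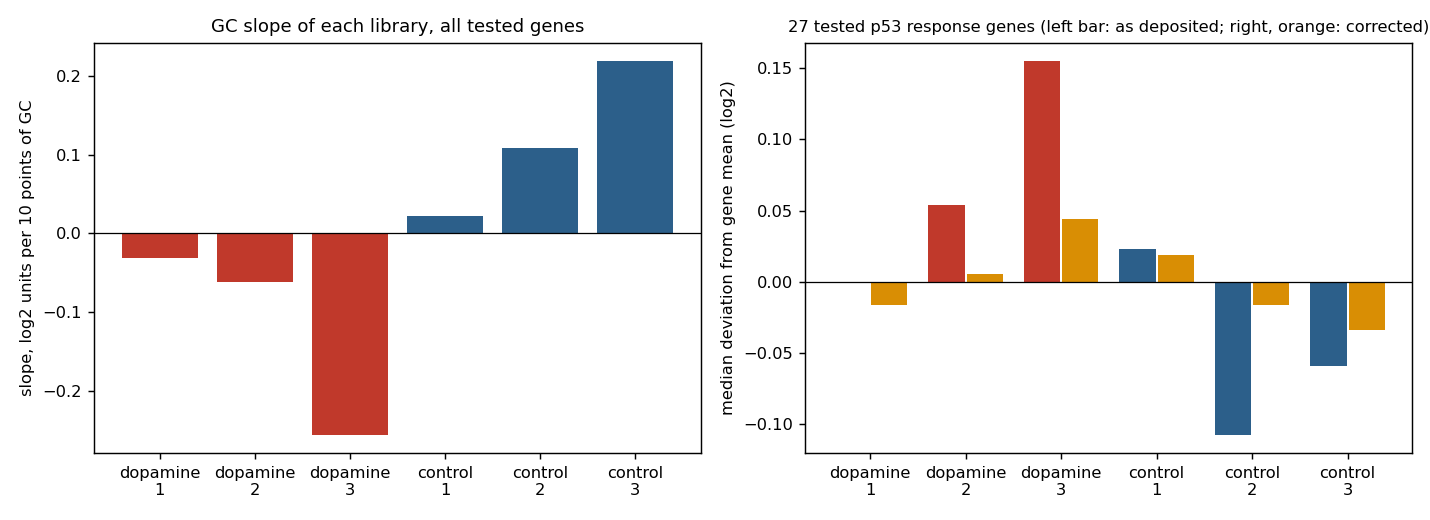
Left, the GC slope of each library in log2 units per 10 points, over all tested genes. Right, the median deviation of the 27 tested p53 response genes in each library in log2 units, as deposited (left bars, red for dopamine and blue for control) and after the correction (orange). Dopamine replicate 3 stands at 0.15 and control replicate 2 at -0.11 as deposited, and at 0.04 and -0.02 after the correction.

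After a loess correction of each library for GC content and transcript length, 7 of the 27 members (25.9%) had a p under 0.05 and 0 an adjusted p under 0.05 (limma, lowest adjusted p = 0.0981). Over the 11579 genes with both properties 16.8% had such a p, 8.37% higher and 8.45% lower, and 0.225% passed the adjusted threshold, 0.19% higher and 0.0345% lower. The members' median log2 fold change was 0.02, and 15 had a higher mean with dopamine, against 49.8% of all genes. The 7 were among the 16 before the correction: PLK2, CCNG1, TRIAP1, RRM2B and GDF15 with a higher mean and BTG2 and AEN with a lower mean. These 7 come from 5 of the 6 role groups.

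Of the 4 genes that restrain p53, all had a higher mean with dopamine as deposited and 3 had a p under 0.05, but none passed the adjusted threshold (limma). Their transcripts have a GC content of 38.2 to 45.1%. Among all genes at or below the median GC content 91.1% had a higher mean, and 45.8% had a higher mean with such a p. After the correction 1 of the 4 had a p under 0.05, and their median log2 fold change was 0.07. CCNG1 (ENSG00000113328.14, hg19 chromosome 5, 162864575 to 162873157) encodes cyclin G1, which recruits a phosphatase that activates MDM2. CCNG1 stood at 14.0, 16.7 and 21.7 FPKM with dopamine and at 13.1, 11.4 and 8.498 FPKM in control cells. The groups did not overlap, although dopamine replicate 1 and control replicate 1 lay close together. Its log2 fold change was 0.65 (SE 0.18, limma adjusted p = 0.11), and 0.26 (SE 0.09, adjusted p = 0.224) once corrected for GC and length. MDM2 (ENSG00000135679.17, hg19 chromosome 12, 69201956 to 69239214), the ubiquitin ligase that is both a target and the main inhibitor of p53, stood at 7.75, 8.82 and 11.6 FPKM with dopamine and at 8.02, 7.37 and 5.52 FPKM in control cells. The groups overlapped, since dopamine replicate 1 lay below control replicate 1. Its log2 fold change was 0.40 (SE 0.17, limma adjusted p = 0.141) and 0.08 (SE 0.09) after the correction. PPM1D, a phosphatase that removes activating marks from p53, averaged 5.69 ± 0.784 FPKM with dopamine and 4.52 ± 0.643 FPKM in control cells (SD, n = 3 each), with overlapping groups. MDM4, the partner of MDM2, was the lowest of the 4 at 1.98 ± 0.366 and 1.71 ± 0.425 FPKM in dopamine and control cells. The sign of MDM4 turned after the correction (log2 fold change -0.14, SE 0.09) and after quantile normalization (-0.0024).

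The 7 genes of growth arrest and stress signalling split, 3 with a higher and 4 with a lower mean. PLK2 (ENSG00000145632.10, hg19 chromosome 5, 57749809 to 57756087), a polo-like kinase of stressed cells and neurons, had the smallest p of all members. PLK2 stood at 16.4, 16.0 and 19.7 FPKM with dopamine and at 13.7, 12.1 and 10.9 FPKM in control cells. Each dopamine sample lay above each control sample. Its log2 fold change was 0.49 (SE 0.11, limma adjusted p = 0.11), and 0.32 (SE 0.07, adjusted p = 0.146) after the correction. BTG2 (ENSG00000159388.5, hg19 chromosome 1, 203274619 to 203278730), an antiproliferative cofactor that promotes mRNA deadenylation, went the other way, with 7.19, 7.95 and 8.20 FPKM with dopamine and 9.35, 8.55 and 10.9 FPKM in control cells. Here too each dopamine sample lay on the lower side. Its log2 fold change was -0.28 (SE 0.11, limma adjusted p = 0.128) and -0.35 (SE 0.09, adjusted p = 0.152) after the correction.

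Within the same group PLK3, another polo-like kinase, stood at 10.7, 11.1 and 8.82 FPKM with dopamine and at 11.8, 12.5 and 12.3 FPKM in control cells. PHLDA3, an inhibitor of AKT signalling, stood at 31.7, 33.6 and 25.5 FPKM with dopamine and at 35.5, 38.9 and 34.5 FPKM in control cells. ZNF385A, a zinc finger protein that binds p53, stood at 9.59, 8.17 and 8.56 FPKM with dopamine and at 10.5, 10.2 and 10.9 FPKM in control cells. In these 3 genes the dopamine values lay below the control values in each case, and all 3 have GC-rich transcripts (59.6 to 63.2%). Their log2 fold changes of -0.26, -0.27 and -0.25 came to -0.10, -0.13 and -0.08 after the correction (limma adjusted p = 0.371, 0.398 and 0.627). ZMAT3, an RNA-binding splicing regulator, averaged 5.84 ± 1.07 FPKM with dopamine and 4.29 ± 1.02 FPKM in control cells (log2 fold change 0.41, and 0.03 after the correction). GADD45A, a damage-induced gene that binds the replication clamp, had 20.8, 20.3 and 27.04 FPKM with dopamine and 21.0, 21.5 and 20.9 FPKM in control cells. Its higher mean rested on dopamine replicate 3 alone, and without that library the log2 fold change was -0.04.

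**Figure D4:**
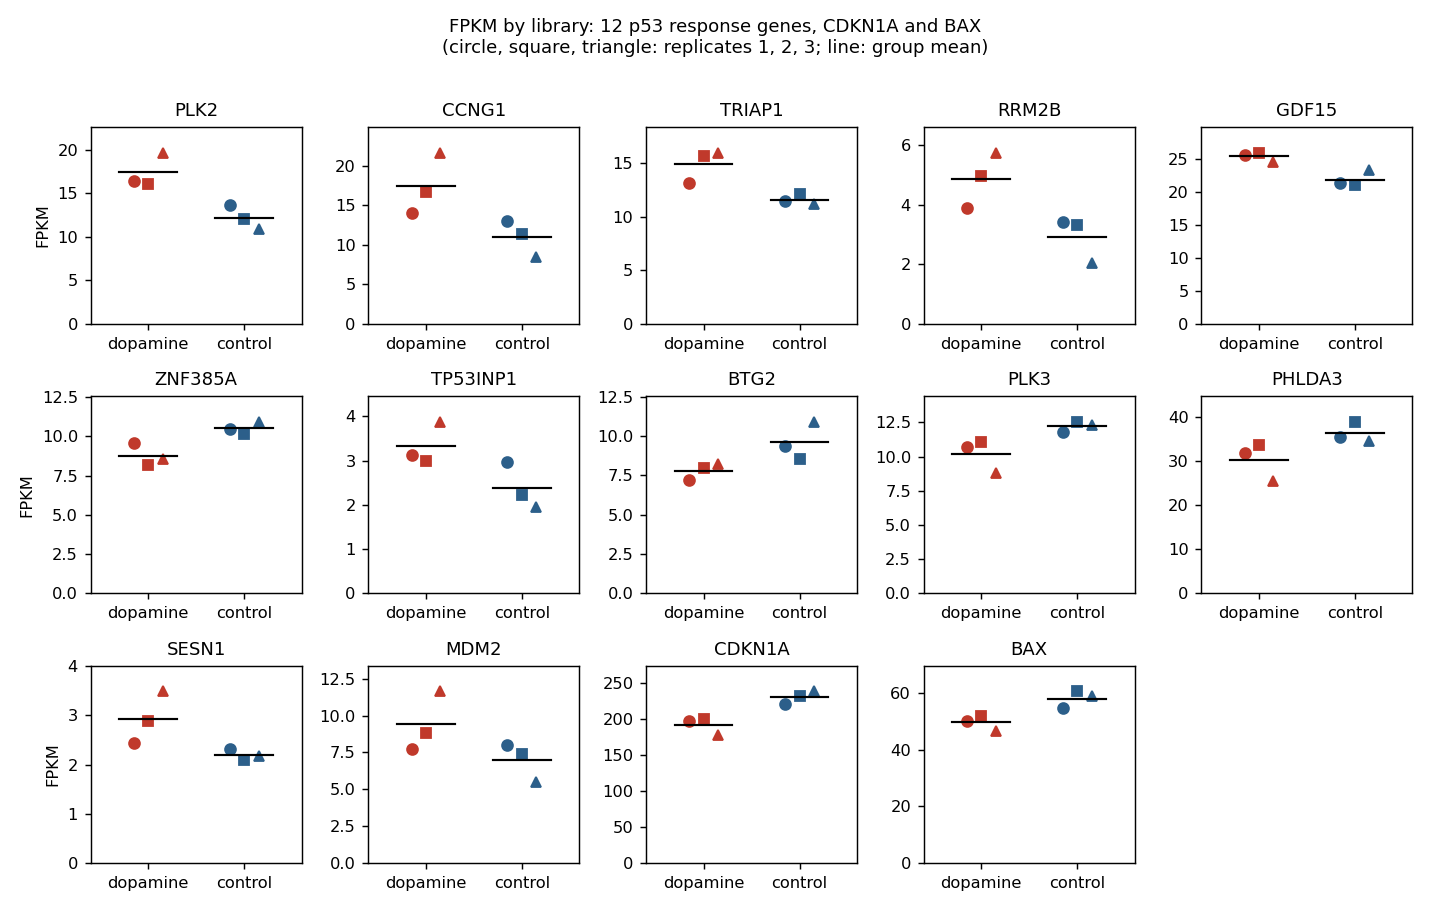
FPKM in each library for the 12 tested p53 response genes with the smallest p, and for CDKN1A and BAX, dopamine in red and control in blue. Symbols mark replicates 1, 2 and 3 and lines the group means. In CCNG1, RRM2B and MDM2 the triangles of replicate 3 lie farthest apart, whereas in GDF15 they lie closest together.

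Of the 3 tested death receptors, which trigger apoptosis from the cell surface, 1 had a p under 0.05 and none passed the adjusted threshold (limma). That is 33.3%, against 32.5% of all tested genes with such a p. FAS stood at 3.59, 3.59 and 4.77 FPKM with dopamine and at 3.52, 2.97 and 1.89 FPKM in control cells, a log2 fold change of 0.47 (SE 0.20, limma adjusted p = 0.141) and of 0.09 (SE 0.11) after the correction. Overlap was absent, but the lowest dopamine samples and the highest control sample were almost level. The span of FAS overlaps that of ACTA2 over 2.92% of its length, and ACTA2 is far more abundant, at 102 FPKM with dopamine and 114 FPKM in control cells. TNFRSF10B, the TRAIL receptor DR5, was abundant and close to level, at 35.7, 35.6 and 32.4 FPKM with dopamine and 34.8, 32.4 and 34.5 FPKM in control cells (log2 fold change 0.03, SE 0.08). TNFRSF10A, the TRAIL receptor DR4, averaged 1.33 ± 0.0126 FPKM with dopamine and 1.38 ± 0.155 FPKM in control cells. The decoy receptor gene TNFRSF10D lay below the filter, at 0.0273, 0.0146 and a listed 0 FPKM with dopamine and at a listed 0, a listed 0 and 0.0137 FPKM in control cells.

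Among the other cell death genes TRIAP1 (ENSG00000170855.3, hg19 chromosome 12, 120881764 to 120884215), a small mitochondrial protein that restrains apoptosis, stood at 13.1, 15.7 and 16.0 FPKM with dopamine and at 11.5, 12.1 and 11.1 FPKM in control cells. The groups did not overlap, and the control samples were tight. Its log2 fold change was 0.35 (SE 0.10, limma adjusted p = 0.11) and 0.15 (SE 0.06, adjusted p = 0.287) after the correction. AEN (ENSG00000181026.13, hg19 chromosome 15, 89164527 to 89175513), an exonuclease that degrades DNA in apoptosis, had 12.4, 13.9 and 12.99 FPKM with dopamine and 14.7, 14.7 and 15.4 FPKM in control cells. Each dopamine value lay below each control value, with a log2 fold change of -0.18 (SE 0.08, limma adjusted p = 0.154). The corrected value was -0.24 (SE 0.07, adjusted p = 0.172). TP53INP1, a stress protein that also takes part in autophagy, stood at 3.13, 2.98 and 3.88 FPKM with dopamine and at 2.98, 2.22 and 1.96 FPKM in control cells. Dopamine replicate 2 and control replicate 1 were almost equal, and its log2 fold change of 0.42 (SE 0.16, limma adjusted p = 0.126) came to 0.02 (SE 0.07) after the correction. Its whole span lies within that of NDUFAF6, which averaged 1.42 FPKM with dopamine and 1.19 FPKM in control cells. EI24, a membrane protein of the endoplasmic reticulum, was the most abundant member, at 52.5, 54.2 and 54.7 FPKM with dopamine and 46.9, 47.5 and 51.0 FPKM in control cells. Its groups did not overlap (log2 fold change 0.15, SE 0.07, limma adjusted p = 0.166). The corrected log2 fold change of EI24 was 0.07 (SE 0.05, limma adjusted p = 0.534).

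TP53I11, a gene named for its induction by p53, averaged 2.69 ± 0.207 FPKM with dopamine and 3.26 ± 0.136 FPKM in control cells, without overlap. Its span is covered over 71.1% by that of TSPAN18, which had a similar level, so its values are uncertain. TP53I3, a quinone oxidoreductase, averaged 26.9 ± 3.05 FPKM with dopamine and 28.99 ± 0.702 FPKM in control cells, with overlapping groups. PERP, a membrane protein of cell junctions, lay below the filter at 0.124, 0.0601 and 0.109 FPKM with dopamine and 0.0616, 0.0192 and 0.0451 FPKM in control cells.

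Of the repair genes RRM2B (ENSG00000048392.7, hg19 chromosome 8, 103216730 to 103251346), a ribonucleotide reductase subunit that supplies nucleotides for repair and for mitochondrial DNA, had the highest log2 fold change of the members, 0.66 (SE 0.19, limma adjusted p = 0.11). RRM2B stood at 3.88, 4.95 and 5.75 FPKM with dopamine and at 3.41, 3.32 and 2.05 FPKM in control cells, without overlap. It also has the lowest GC content among the tested members (36.4%), and its log2 fold change after the correction was 0.21 (SE 0.09, adjusted p = 0.297). XPC, which recognises damaged DNA, averaged 12.5 ± 1.63 FPKM with dopamine and 10.8 ± 0.699 FPKM in control cells, with a log2 fold change of 0.20 that came to 0.19 (SE 0.10, limma adjusted p = 0.352) after the correction. POLH, a polymerase that copies past lesions, averaged 9.94 ± 0.613 FPKM with dopamine and 9.07 ± 0.978 FPKM in control cells, and GTPBP2 overlaps 31.9% of its span. Both had overlapping groups.

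GDF15 (ENSG00000130513.6, hg19 chromosome 19, 18485541 to 18499986), a secreted stress cytokine that is a target of p53 and also of the integrated stress response factors ATF4 and CHOP, lay above most genes of its GC content. It had 25.7, 26.0 and 24.5 FPKM with dopamine and 21.3, 21.0 and 23.3 FPKM in control cells. The groups did not overlap, and the replicates 3 were the closest pair. Its log2 fold change was 0.21 (SE 0.08, limma adjusted p = 0.121), although its transcript is GC-rich (62.9%), and 0.36 (SE 0.06, adjusted p = 0.0981) after the correction, the highest and the smallest p of the members there. After median-of-ratios scaling it was 0.10 (SE 0.10, adjusted p = 0.478). Among 7 stress genes of those factors, DDIT3, which encodes CHOP, passed the adjusted threshold, with 8.97, 8.71 and 7.74 FPKM with dopamine and 3.96, 4.90 and 3.70 FPKM in control cells (log2 fold change 0.94, SE 0.12, limma adjusted p = 0.028). The other 5 tested genes of that list did not pass, among them DDIT4 at 38.9 ± 4.00 FPKM with dopamine and 32.8 ± 2.28 FPKM in control cells. TRIB3, a pseudokinase of the same list, went the other way, at 8.21 ± 0.811 FPKM with dopamine and 9.73 ± 0.312 FPKM in control cells without overlap (log2 fold change -0.24, SE 0.10, limma adjusted p = 0.137). ATF3 was below the filter. Once corrected for GC and length, 5 of the 6 tested genes of the list had a raised mean with a limma p under 0.05. A reduced mean with such a p was found in 0. As deposited these counts were 2 and 1. The shares of all corrected genes were 8.37% and 8.45%. DDIT3 alone passed the adjusted threshold there (log2 fold change 0.88, adjusted p = 0.0229). TRIB3 came to -0.09 (SE 0.06, adjusted p = 0.489). The part of ATF4 and CHOP in the change of GDF15 was not tested.

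SESN1, which restrains mTORC1 signalling, stood at 2.43, 2.89 and 3.49 FPKM with dopamine and at 2.32, 2.09 and 2.18 FPKM in control cells, a log2 fold change of 0.34 (SE 0.14, limma adjusted p = 0.138) and of 0.04 (SE 0.09) after the correction. Overlap was absent, and the dopamine values spread more than the control values. DRAM1, a lysosomal regulator of autophagy, averaged 6.43 ± 0.463 FPKM with dopamine and 5.67 ± 0.655 FPKM in control cells. FDXR, a mitochondrial reductase, averaged 18.0 ± 2.12 and 20.04 ± 0.574 FPKM in dopamine and control cells. SPATA18, a factor of mitochondrial quality control, lay below the filter at 0.654, 0.720 and 0.890 FPKM with dopamine and 0.926, 0.526 and 0.568 FPKM in control cells.

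Other genes of the pathway were taken from 2 further lists. Of 18 tested regulators of p53 none passed (limma), while 7 with a higher mean and 0 with a lower mean had an unadjusted p under 0.05. That is 38.9% of the list, against 32.5% of all tested genes (24.4% higher and 8.05% lower). The list had a median of 0.19 on the log2 fold scale. USP7, a deubiquitinase of MDM2 and p53, averaged 9.86 ± 1.73 FPKM with dopamine and 7.26 ± 1.21 FPKM in control cells. The p53-binding protein TP53BP1 averaged 6.11 ± 0.890 and 4.34 ± 0.971 FPKM, and the kinase HIPK2 18.3 ± 3.06 and 14.3 ± 1.32 FPKM, in dopamine and control cells. After the correction 3 of the 18 had an unadjusted p under 0.05, where 16.8% of all genes did (8.37% higher and 8.45% lower). These 3 were USP7, TP53BP1 and HIPK2, with log2 fold changes of 0.19, 0.24 and 0.23. The median of the list was then 0.04.

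Of 28 tested genes in a list of other p53 targets none passed (limma), with a median log2 fold change of -0.02. An unadjusted p under 0.05 was found in 5 with a higher and 6 with a lower mean (39.3% of the list). Over all tested genes 24.4% were called higher and 8.05% lower. CDKN1A (ENSG00000124762.9, hg19 chromosome 6, 36644305 to 36655116), which encodes the cell cycle inhibitor p21, had 197, 201 and 179 FPKM with dopamine and 222, 233 and 239 FPKM in control cells, more than any of the 30 members. Without overlap, the log2 fold change was -0.27 (SE 0.08, limma adjusted p = 0.11), and the corrected value was -0.16 (SE 0.05, adjusted p = 0.181). BAX, which permeabilises mitochondria in apoptosis, had 50.2, 52.1 and 46.8 FPKM with dopamine and 54.6, 60.7 and 59.1 FPKM in control cells, a log2 fold change of -0.22 (SE 0.08, limma adjusted p = 0.116) and of -0.12 (SE 0.05) after the correction. TIGAR, a fructose bisphosphatase, averaged 8.87 ± 0.839 FPKM with dopamine and 6.47 ± 0.501 FPKM in control cells. EPHA2, a receptor tyrosine kinase, averaged 37.6 ± 3.50 and 48.7 ± 2.89 FPKM, and FBXO22, a ubiquitin ligase subunit, 6.99 ± 0.760 and 5.38 ± 0.419 FPKM, in dopamine and control cells. After the correction 2 genes of this list were higher and 6 lower at a p under 0.05, where 8.37% of all genes were higher and 8.45% lower. FBXO22 then had a log2 fold change of -0.08 against 0.35 before.

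Markers of the labelled cell type were present. The 9 adrenergic neuroblastoma markers used were all above the filter, with a summed level of 315 to 367 FPKM with dopamine and 324 to 375 FPKM in control cells. Of these 9, PHOX2A and GATA2 had an unadjusted p under 0.05 as deposited (22.2%, against 32.5% of all tested genes). Both had a lower mean without overlap (limma adjusted p = 0.11 and 0.141), and 0 of the 9 had such a p after the correction. The 10 mesenchymal neuroblastoma markers were all above the filter and summed to 1508 to 1577 FPKM with dopamine and 1540 to 1736 FPKM in control cells, most of it from VIM. At an unadjusted p under 0.05 stood 2 of these 10 as deposited, SNAI2 and YAP1, both with a higher mean (limma adjusted p = 0.11 and 0.123). Over all tested genes 24.4% were called higher. After the correction 5 had such a p, VIM, FN1, WWTR1, NOTCH2 and CD44, each with a lower mean, where 8.45% of all genes were lower. None passed the adjusted threshold. As deposited the log2 fold changes of these 5 were -0.094, -0.041, 0.015, -0.024 and 0.003. The lower mean of WWTR1 and CD44 thus appeared only after the correction. The part of these markers in the members' differences was not tested. None of 5 leukocyte and endothelial markers in the table reached the filter, and their sum was 0.0769 to 0.135 FPKM with dopamine and 0.0871 to 0.176 FPKM in control cells. The 4 tested epithelial genes, mainly KRT18 and KRT8, had lower means with dopamine without overlap, and the list summed to 107 to 123 FPKM with dopamine and 142 to 176 FPKM in control cells. Over all tested genes 14.1% lay lower without overlap. KRT8 and KRT18 had an unadjusted p under 0.05 before and after the correction, and KRT19 and CLDN4 in neither case. Of all genes 8.05% were called lower as deposited and 8.45% after the correction. The 4 genes have a GC content of 55.7 to 61.8%, and 28.97% of all genes above the median GC content had a higher mean as deposited. No gene of the list passed the adjusted threshold (limma). EPCAM and CDH1 lay below the filter in that list, and the part of these genes in the members' differences was not tested. In bulk samples fewer cells of a type and less RNA per cell cannot be told apart.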

How the data were processed

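RNA of SK-N-SH cells was measured in 6 samples, 3 with dopamine for 6 h and 3 in medium alone, grouped by their titles. The authors deposited FPKM values for 26789 genes placed on hg19. DESeq2 1.40.2, HTSeq 0.11.2, STAR 2.7.1a and FastQC 0.11.9 are named, per the submitters' processing notes, without a role. The annotation and strandedness were not given in the sources used here. Members that overlap other genes are therefore uncertain. The spans of 7 members overlap a gene with a mean of 1 FPKM or more.

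Depth was recovered from steps of 1 fragment in the FPKM of 2797 pseudogenes of 150 to 1500 bases: 92.6 to 94.1% of low values were whole within 0.03. A single exon was assumed for each. FPKM depend on the library's total, so a few abundant genes can move all others.

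Values were analysed as log2(FPKM + 0.5), which understates changes of low genes. Genes with a mean of 1 FPKM or more were fitted with limma 3.58.1 in R 4.3.3 (intensity trend, two-sided, Benjamini-Hochberg over 11791 genes, threshold 0.05, no replicate block), after a test on simulated data. The correction subtracted, library by library, a loess curve (span 0.5) in the GC content and log2 length of a gene's longest transcript (GENCODE 29, matched by gene identifier, 98.2% of tested genes). The members and lists were chosen with earlier results of these data known. The 12 members with the smallest p, MDM2, GDF15, CDKN1A and BAX were to be given by sample, with up to 4 genes from each other list, and the other members by mean or sample. Some genes of the other lists are not reported here. Alternatives were pseudocounts, filters, scalings, variance models, a replicate block, the correction and leaving out each library. The fit without both replicates 3 was added after seeing the data.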

Additional observations from a re-analysis of the deposited data

How the results depend on the processing

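No sign turned in 20 of the 27 tested members over the alternative settings in which each was tested, 18 or 19 per gene. The number of members past an adjusted p of 0.05, 0 in the comparison as reported, was 8 with sample quality weights (22.9% of all tested genes passed there) and 0 to 6 when 1 library was left out. It was 6 without control replicate 1, where 18.5% of all tested genes passed, and 0 without any other library. The number at an unadjusted p under 0.05, 16 as reported, was 7 after the GC and length correction, 9 with the replicate block, 8 with both together, 6 to 13 when 1 library was left out, and 8 without both replicates 3. The share of all tested genes with such a p, 32.5% as reported, moved too, to 16.8% after the correction, 21.9% with the block, 18.3% with both, 16.4 to 37.7% when 1 library was left out and 13.1% without both replicates 3. Leaving out control replicate 2 gave 6, control replicate 3 gave 7 and dopamine replicate 3 gave 7. The median log2 fold change, 0.17 as reported, was 0.0889 after quantile normalization, 0.0645 with median-of-ratios scaling, and 0.0206 after the correction with and without the replicate block. The cause of these changes was not tested.

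Over all tested genes the number past the adjusted threshold, 12 as reported, was 6 with no filter, 27 after quantile normalization, 5 with no trend, 2706 with quality weights, 3 with the replicate block, 26 after the correction, 3 to 2177 when 1 library was left out, and 7 without both replicates 3.

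Signs turned in 7 genes, none of them past the adjusted threshold. After the correction, with and without the block, the log2 fold change was 0.0034 for FDXR, -0.0177 for DRAM1, -0.0489 for POLH, -0.138 for MDM4 and -0.0544 for TNFRSF10B. MDM4 was -0.0024 after quantile normalization and -0.0186 without both replicates 3. GADD45A was -0.0211 after median-of-ratios scaling, -0.0307 with quality weights, -0.045 without both replicates 3 and -0.038 to 0.163 when 1 library was left out. TNFRSF10B was -0.0839 after median-of-ratios scaling and -0.0028 to 0.0744 when 1 library was left out. TNFRSF10A was 0.0371 with quality weights, 0.0274 without both replicates 3 and -0.0964 to 0.0224 when 1 library was left out.

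The labels do not say what a replicate number marks. Deviations of same-numbered libraries correlated at -0.20, 0.28 and -0.37 for replicates 1, 2 and 3. Of the dopamine libraries replicate 2 alone correlated best with its own number. With 3 libraries per group, which also differ in GC slope, these values cannot show whether the numbers pair the samples. FPKM carry no counts, so the precision of low members such as TNFRSF10D and PERP is limited.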
